A study of Homo sapiens with 6 samples.

Results

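The regions described here are 2585 R-loop peaks of quiescent fibroblasts that lie inside genes and have an overlapping peak in senescent and in proliferating cells, called kept gene-body peaks. They were chosen from the quiescent list on chromosomes 1 to 22 and X. Each overlaps a peak of both other lists by at least 1 bp, overlaps a protein-coding or lncRNA gene of RefSeq on GRCh38, and lies more than 1000 bp from every annotated end of such a gene. They make up 26.6% of the 9727 quiescent peaks on these chromosomes (95% Wilson interval 25.7% to 27.5%). Presence in the lists and position in a gene chose them, so both are given as descriptions.

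The cells were IMR90, a wild-type line of human embryonic lung fibroblasts cultured at 2% oxygen. Quiescent cells had been starved, senescent cells carried ectopic Ras, and proliferating cells carried a control vector. R-loops were mapped with MapR, in which RNase H tethered to micrococcal nuclease cuts out chromatin near RNA-DNA hybrids, with 1 such library per state. Libraries made with GST-MNase were not used here, and the sources used here name neither the Ras construct nor the length of starvation.

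An R-loop forms when newly made RNA hybridises with its template and leaves the other DNA strand single. R-loops are known to gather at GC-rich promoters with unmethylated CpG islands, and many genes carry further promoters downstream of their first exon. Quiescence is a reversible arrest, and senescence a lasting one that oncogenic Ras can trigger, with CDKN2A among the genes known to enforce it.

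Several of the comparisons turn on annotated transcript starts inside genes, so 6 windows around such starts are shown before the values. A start window is 300 bases of RefSeq sequence on GRCh38.p14, from 250 before to 50 after a transcript start, and is internal when it too lies more than 1000 bp from every gene end. Each sequence is printed 5′ to 3′ on the strand of its gene, with GC boxes (GGGCGG, or CCGCCC for the other strand) and AP-1 motifs (TGACTCA or TGAGTCA) in capitals. UBXN2A held the highest-scoring kept peak over such a window. SEPTIN9 held most kept peaks of any gene and is shown with the windows of the transcript starts 38.0 and 91.8 kb from its outermost annotated start. CDKN2A, SHC1 and RARA are a senescence regulator, a Ras-pathway adaptor and a retinoic acid receptor.
UBXN2A, chr2:23940213-23940512, plus strand: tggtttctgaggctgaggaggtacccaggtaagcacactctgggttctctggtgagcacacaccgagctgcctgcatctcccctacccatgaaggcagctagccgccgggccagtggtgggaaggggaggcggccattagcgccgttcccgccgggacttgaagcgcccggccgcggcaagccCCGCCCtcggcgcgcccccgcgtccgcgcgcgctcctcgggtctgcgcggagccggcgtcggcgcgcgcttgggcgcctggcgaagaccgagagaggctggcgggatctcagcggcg
SEPTIN9, chr17:77319268-77319567, plus strand: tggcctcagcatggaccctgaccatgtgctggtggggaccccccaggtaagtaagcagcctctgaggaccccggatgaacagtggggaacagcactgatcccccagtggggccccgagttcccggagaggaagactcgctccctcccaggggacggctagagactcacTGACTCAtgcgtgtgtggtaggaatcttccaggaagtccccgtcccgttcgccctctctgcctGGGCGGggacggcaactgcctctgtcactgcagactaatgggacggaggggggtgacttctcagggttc
SEPTIN9, chr17:77373087-77373386, plus strand: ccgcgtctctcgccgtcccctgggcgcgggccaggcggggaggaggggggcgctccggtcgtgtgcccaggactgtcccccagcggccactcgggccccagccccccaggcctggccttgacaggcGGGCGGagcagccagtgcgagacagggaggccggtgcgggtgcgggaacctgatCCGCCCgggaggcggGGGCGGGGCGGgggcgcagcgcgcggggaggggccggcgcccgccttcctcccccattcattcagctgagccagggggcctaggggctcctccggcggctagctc
CDKN2A, chr9:21974808-21975107, minus strand: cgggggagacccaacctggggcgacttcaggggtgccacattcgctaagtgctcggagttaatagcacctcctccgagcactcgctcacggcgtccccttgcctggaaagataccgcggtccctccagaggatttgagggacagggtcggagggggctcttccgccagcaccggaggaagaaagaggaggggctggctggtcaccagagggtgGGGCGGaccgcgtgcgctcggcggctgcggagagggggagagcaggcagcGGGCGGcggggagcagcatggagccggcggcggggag
SHC1, chr1:154970698-154970997, minus strand: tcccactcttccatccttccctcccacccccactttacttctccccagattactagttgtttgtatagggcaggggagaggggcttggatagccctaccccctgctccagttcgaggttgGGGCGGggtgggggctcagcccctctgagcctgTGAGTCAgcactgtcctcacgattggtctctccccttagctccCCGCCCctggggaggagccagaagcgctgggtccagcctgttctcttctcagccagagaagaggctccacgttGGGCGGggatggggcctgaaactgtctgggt
RARA, chr17:40317995-40318294, plus strand: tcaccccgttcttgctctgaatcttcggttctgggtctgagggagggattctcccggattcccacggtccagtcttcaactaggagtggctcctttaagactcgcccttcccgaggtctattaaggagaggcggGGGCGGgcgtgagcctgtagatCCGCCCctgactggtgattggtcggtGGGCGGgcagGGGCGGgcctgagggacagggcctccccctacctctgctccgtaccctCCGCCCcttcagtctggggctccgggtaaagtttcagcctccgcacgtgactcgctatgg

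The transcript start of the CDKN2A window lies 20.5 kb from the outermost start of the gene, and 164 of the 300 bases of the window lay under the kept peak. That peak was 502 bp wide in quiescent cells, and its partners were 1534 bp in senescent and 2149 bp in proliferating cells. The gene encodes the CDK inhibitor p16 and the p53-stabilising ARF protein from separate first exons, and the printed window is an annotated start downstream of the outermost one. The SHC1 window was covered whole by a kept peak of 1076 bp, with partners of 2941 bp in senescent and 2765 bp in proliferating cells, and held 3 GC boxes and 1 AP-1 motif. The RARA window was also covered whole, by a kept peak of 838 bp with partners of 11101 bp in senescent and 4461 bp in proliferating cells, and held 5 GC boxes. The UBXN2A window, with a GC content of 72.0%, lay partly under a peak of 145 bp in quiescent cells, against 1361 bp in senescent and 2214 bp in proliferating cells.

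The lists differed widely in size, which bears on every overlap. The quiescent list held 9736 peaks over 4.12 Mb, the senescent list 85564 over 54.1 Mb and the proliferating list 101802 over 85.4 Mb. Gene-body peaks made up 28.5% of the quiescent, 48.1% of the senescent and 52.2% of the proliferating list. Each peak carries a score from the authors, on a scale that no source names, and scores were ranked only within their own list. Read depth is unknown, so a missing peak cannot be told from a shallow library, and a peak in fewer cells cannot be told apart from a weaker signal per cell. With 1 library per state there is no replicate and no test between states, and every interval covers counting error over regions only.

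Of the 2773 quiescent gene-body peaks, 93.2% were kept (92.2% to 94.1%). The shares were 94.9% among the 5907 quiescent peaks at gene ends and 90.2% among the 1047 outside genes. The 188 gene-body peaks that were not kept comprised 163 with a proliferating partner only, 11 with a senescent partner only and 14 with neither. The kept peaks were narrow, with a median of 344 bp (quartiles 244 and 489 bp), and scored 20 at the median, the same as kept peaks at gene ends. Peaks that were not kept had a median width of 264 bp and a median score of 17.

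The same sites were marked by much wider peaks in the other states. The senescent partners had a median width of 1172 bp and the proliferating partners 2209 bp. Against their kept peak the median ratio of widths was 3.25 in senescent and 6.1 in proliferating cells. In 2181 of the 2585 sites (84.4%) the proliferating peak was the widest and the quiescent one the narrowest. The quiescent peak lay entirely inside its partner at 78.0% of sites in senescent and 97.0% in proliferating cells. These partners were also among the stronger peaks of their lists: with each list cut into 5 equal classes by rank of score, 60.3% of sites had a senescent partner in the top class, and 83.9% a proliferating one. All gene-body peaks of those lists had median widths of 431 bp in senescent and 481 bp in proliferating cells. These medians are no like-for-like comparison, because an overlap of 1 bp is met more easily by a wide peak. A partner was also counted once for each kept peak it overlapped, and 137 senescent and 211 proliferating partners overlapped at least 2. Partners that reach a gene end are not gene-body peaks. Because partners are wide, 15.9% of the 2440 senescent and 25.6% of the 2324 proliferating partner peaks reached a gene end, although the quiescent peak did not.

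**Figure D1:**
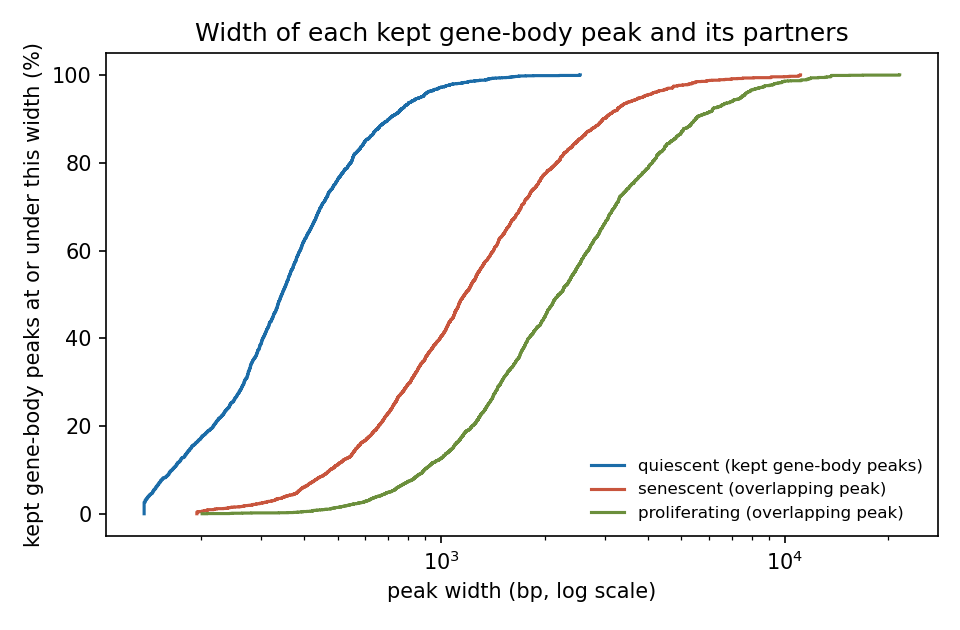
Cumulative share of the 2585 kept gene-body peaks (vertical axis, percent) by peak width (horizontal axis, bp, log scale) for the quiescent peak and for its senescent and proliferating partner. The curves are separated along their length, with medians of 344 bp in quiescent, 1172 bp in senescent and 2209 bp in proliferating cells.

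Peaks at the edge of the rule show how sharp it is. The kept peaks nearest the limit were in CALCB, CYS1 and DOK4, at 1001, 1002 and 1007 bp from a gene end. The peaks just outside it were in COL6A3 and AGBL5, at 1000 bp each, and in TMEM170A, at 999 bp. COL6A3 encodes a chain of collagen VI, and its peak of 1157 bp in quiescent cells had partners of 1934 bp in senescent and 4732 bp in proliferating cells.

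The highest quiescent score among the kept peaks, 87, belonged to a peak of 180 bp in PRDM11, a gene of the PR-domain family. Its partners were 773 bp wide in senescent and 623 bp in proliferating cells. NAV2, which encodes a microtubule-associated navigator protein, came next with a score of 77 and widths of 189 bp in quiescent, 749 bp in senescent and 2461 bp in proliferating cells. OPCML, a cell adhesion gene, scored 74 with widths of 185 bp in quiescent, 804 bp in senescent and 739 bp in proliferating cells. The OPCML peak lay 81.2 kb from the nearest gene end. HOOK2 (a dynein adaptor, score 70), LOC102724701 (67), UBXN2A (a cofactor of the p97 ATPase, 64), SH2B1 (an adaptor of receptor tyrosine kinases, 60), PCLAF and SARDH (58 each) and TK2 (57) completed the highest scores. These 10 peaks were between 137 and 227 bp wide. Among all kept peaks, the 567 with scores of 28 to 87 had a median width of 360.0 bp, and the 485 with scores of 10 to 14 a median of 284.0 bp. UBXN2A, SH2B1 and SARDH among them lay over an internal start window.

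The sites with the best rank over all lists were in other genes. The kept peak in NR4A1, an immediate early gene for a nuclear receptor, had a score of 51 in the quiescent, 77 in the senescent and 88 in the proliferating list, and was 532 bp wide in quiescent, 685 bp in senescent and 973 bp in proliferating cells. NRXN2, a synaptic adhesion gene, had scores of 53 in the quiescent, 48 in the senescent and 83 in the proliferating list. SIN3A, the scaffold of a histone deacetylase complex, had 47 in the quiescent, 55 in the senescent and 75 in the proliferating list. VAC14, GPR137, SBK1, BCL9L and the non-coding genes LINC01270, LOC124903823 and LOC105371912 were the others with the best lower rank over the 3 lists. The widest kept peaks were in TSPAN4 (2541 bp), NFIX (2526 bp), SEPTIN9 (2512 bp), MXRA8 (2209 bp) and SPACA6 (1860 bp), and those in TSPAN4, SEPTIN9 and MXRA8 covered internal start windows.

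At least 1 base of an internal start window lay under 322 of the 2585 kept gene-body peaks, or 12.5% (11.2% to 13.8%). The start itself need not lie under the peak. Among quiescent gene-body peaks that were not kept the share was 4.26% (8 of 188), a difference of 8.2 percentage points (Newcombe interval 4.1 to 10.7). That difference was 3.34 points (0.741 to 6.11) with equal numbers of highest-scoring peaks from each list and 0.378 points (-4.74 to 8.06), which includes 0, with a mutual overlap of 50%. Gene-body peaks that senescent and proliferating cells shared without any quiescent peak were the second comparison. Of the 22904 such senescent peaks 3.22% lay over an internal start window, and of the 20642 such proliferating peaks 3.71%, so that the kept peaks were 9.23 points (7.99 to 10.6) and 8.75 points (7.5 to 10.1) higher. Whether an internal start window lies under a peak was not used to choose the regions, but which peaks were kept rests on the lists themselves.

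The kept peaks had the higher share in each of 5 classes of peak width. Among peaks of 137 to 249 bp, 8.42% of kept peaks lay over an internal start window, against 1.22% of senescent and 0.482% of proliferating peaks without a quiescent partner. Among peaks of 1000 to 2999 bp the shares were 31.5% of kept peaks, 8.06% of senescent and 7.97% of proliferating ones. Within genes that the promoter table covers, the shares were 15.3% of kept peaks, 5.41% of those not kept, 4.08% of the senescent and 4.7% of the proliferating peaks without a quiescent partner.

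In the proliferating list the share over an internal start window moved with the score of the partner. In the top score class of the proliferating list, 1373 gene-body peaks overlapped a kept peak. Of these, 25.6% lay over an internal start window, against 8.45% of the 4025 without a quiescent peak (difference 17.1 points, 14.7 to 19.6). In the next class the shares were 12.6% of 253 and 4.43% of 5377. The peaks with a kept peak were wider in both classes, with medians of 1791 against 1042 bp in the top one. In the senescent list the share did not fall from the top class to the next. It was 18.8% of 1162 and then 20.4% of 520, against 4.77% and 3.68% without a quiescent peak. In score classes 3 and 4 of that list it was 17.6% and 12.3%, against 2.96% and 2.72%. When only an equal number of highest-scoring peaks was used from each list, the difference to proliferating peaks without a quiescent partner was 3.02 points (-0.745 to 6.51), which includes 0. The difference to the proliferating peaks was 4.01 points (3.19 to 4.96) when peak midpoints replaced whole peaks, a setting under which the difference to peaks not kept also included 0 (2.38 points, -0.111 to 4.02).

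**Figure D2:**
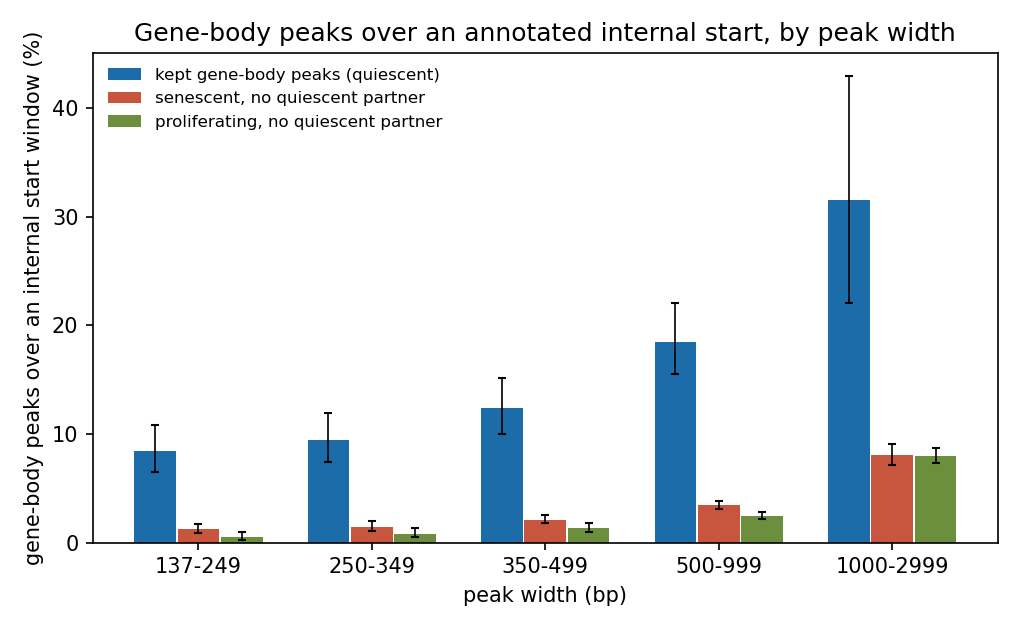
Share of gene-body peaks over an annotated internal start window (vertical axis, percent, with 95% Wilson intervals) in 5 classes of peak width (horizontal axis, bp). Kept gene-body peaks are followed by senescent and then proliferating peaks without a quiescent partner. The kept peaks stand highest in every class, between 8.42% and 31.5%.

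Seen from the starts, 5028 internal start windows of 3462 genes were annotated. A quiescent peak of any class overlapped 8.02% of them, a senescent peak 32.8% and a proliferating peak 44.3%. Of the 403 windows with a quiescent peak, 383 also had a senescent and a proliferating peak, and the other 20 had a proliferating one only. A further 1123 windows had a senescent and a proliferating peak without a quiescent one, and 2658 had none. The 372 windows under a kept gene-body peak belonged to 309 genes, of which 52 had at least 2, and windows of 1 gene can overlap.

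The starts under kept peaks were rich in G and C. Their median GC content was 66.3% (quartiles 61.7% and 72.0%), against 63.0% at starts marked in senescent and proliferating cells only and 46.0% at starts with no peak. The median ratio of observed to expected CpG was 0.715 at starts under kept peaks, 0.661 at those marked without quiescence and 0.237 at those with no peak. Over all internal starts the median GC content was 53.3% and the median CpG ratio 0.341. At the outermost starts of genes these medians were 58.0% and 0.571. A GC box, the core of Sp1-type sites, was present in 68.3% of the 372 windows under kept peaks. It was present in 54.4% of the windows marked in the other states only (difference 13.9 points, 8.19 to 19.3), in 15.4% of those with no peak and in 32.6% of all internal windows. The G-run pattern GGGNNGGG, which can overlap a GC box, was found on either strand in 82.8% of windows under kept peaks, 71.9% of those marked in the other states only and 33.6% of those with no peak.

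The other motifs, which differ in length, were each found in fewer windows under kept peaks than the GC box. TATAAA stood in 4.03% of windows under kept peaks, 5.16% of those marked in the other states only and 20.2% of those with no peak. AP-1 motifs stood in 5.65% of the windows under kept peaks, 6.5% of those marked in the other states only (difference -0.855 points, -3.35 to 2.26) and 6.25% of all internal windows. The NRF1 palindrome stood in 2.42% of windows under kept peaks and in 0.98% of those marked in the other states only (difference 1.44 points, 0.0653 to 3.6). Of the windows with no peak, 0.263% held it (difference 2.16 points, 0.981 to 4.27). The CTCF core motif was found in 1 of the 372 windows. All motifs were searched on both strands, and a match describes letters only.

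Kept gene-body peaks lay towards the 5′ side of their genes. Position was measured for 1840 kept peaks with a single protein-coding host of known strand. Of these, 28.2% had their midpoint within 5 kb of the annotated start of the host. The share was 17.8% for quiescent peaks that were not kept (difference 10.4 points, 2.61 to 16.4). It was 13.1% for senescent and 9.87% for proliferating peaks without a quiescent partner, and the difference to the proliferating peaks was 18.3 points (16.3 to 20.5). The median host length was 69.3 kb for kept peaks and 130.0 kb for those not kept. For the senescent peaks it was 104.0 kb and for the proliferating peaks 108.0 kb. A distance of 5 kb is therefore a larger part of the typical host of a kept peak. With each host cut into 10 equal segments, the first held 22.2% of kept peaks and the last 5.33%, whereas the proliferating peaks without a quiescent partner were spread almost evenly, with 8.8% in the first and 9.5% in the last segment. Of the 129 quiescent peaks that were not kept, 18.6% were in the first segment, and the difference of the kept peaks to them was 3.57 points (-4.24 to 9.66), which includes 0.

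A peak that reaches a gene end is not counted as a gene-body peak, and the lists differ in peak width. How many peaks near starts each list loses this way was not tested. When the excluded zone around gene ends was widened to 3000 bp, the difference within 5 kb fell to 4.48 points (3.06 to 6.14).

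**Figure D3:**
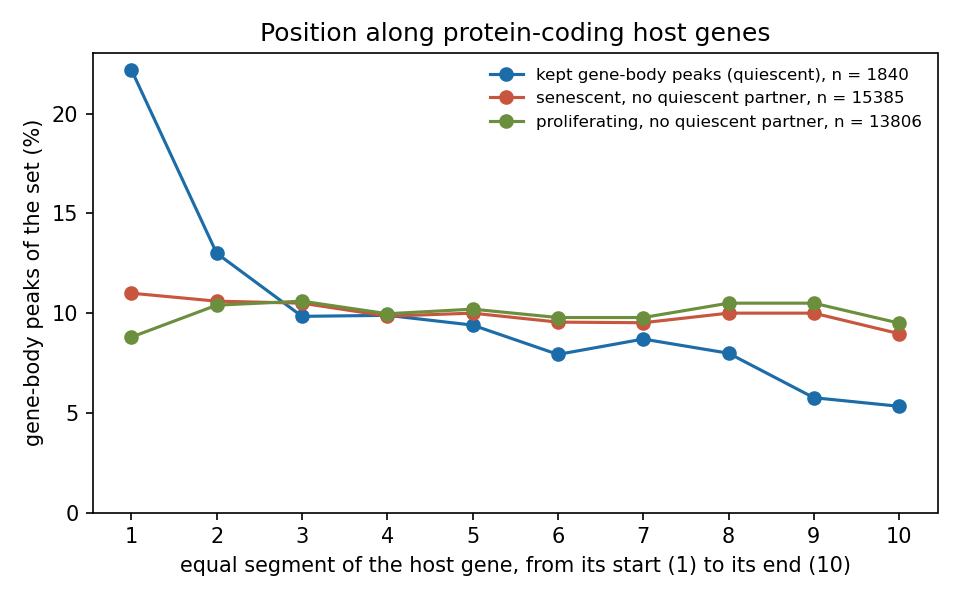
Share of gene-body peaks (vertical axis, percent of each set) in each of 10 equal segments of the protein-coding host, from its annotated start to its end (horizontal axis). Kept gene-body peaks have 22.2% in the first segment and 5.33% in the last, and proliferating peaks without a quiescent partner have 8.8% in the first and 9.5% in the last.

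The kept peaks fell in 1958 genes, and 196 peaks lay in more than 1 gene, including a peak inside 22 overlapping protocadherin gamma genes. Of the 19974 protein-coding genes, 1650 (8.26%) hosted at least 1, which is 8.86% of those long enough to hold one. Of the 18177 lncRNA genes 308 (1.69%) did. Long genes hosted them more often, with 1.1% in the shortest and 16.1% in the longest of 5 equal length classes. Protein-coding genes held 89.9% of the kept peaks, against 84.0% of those not kept (difference 5.82 points, 1.12 to 11.8), 86.6% of senescent and 86.3% of proliferating peaks without a quiescent partner. With a mutual overlap of 50% the difference to peaks not kept turned to -6.71 points (-15.1 to -0.625), over 106 kept peaks.

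Most hosts had no quiescent peak at their ends, but hosts had one more often than protein-coding genes as a whole. A quiescent gene-end peak was found at 39.0% of the 1650 hosts, against 27.5% of all protein-coding genes and 29.5% of genes of the same lengths. For senescent gene-end peaks the shares were 85.2% of hosts, 69.9% of all genes and 73.3% at the same lengths. For proliferating ones they were 90.0% of hosts, 75.5% of all genes and 79.0% at the same lengths. No quiescent peak lay at either end of 1007 hosts (61.0%), a smaller share than over all protein-coding genes. No list had a gene-end peak at 134 hosts (8.12%), and the share of all genes without one in any list is not given here.

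SEPTIN9, which encodes a filament-forming septin and is transcribed from several promoters, hosted 17 kept peaks, the most of any gene. Quiescent peaks covered 4.69% of its 219.0 kb, senescent peaks 30.0% and proliferating peaks 46.3%. Its kept peaks were between 137 and 2512 bp wide and scored from 12 to 50 in the quiescent list. They lay over 5 of its 9 internal start windows. The widest, at chr17:77372174-77374685, held the GC-rich window printed above and had partners of 4258 bp in senescent and 13589 bp in proliferating cells. The window of the start 38.0 kb from the outermost one lay under a kept peak of 558 bp with partners of 1219 bp in senescent and 2542 bp in proliferating cells. SEPTIN9 had no quiescent peak at its ends, while both other lists had one.

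GSE1, a component of a histone demethylase complex, hosted 16 kept peaks over 507.0 kb. Quiescent peaks covered 1.43% of the gene, senescent peaks 14.8% and proliferating peaks 25.5%. None of its kept peaks lay over the single internal start window of the gene. ZMIZ1, a coregulator of SMAD and androgen receptor signalling, hosted 12, with 2.07% of its length covered in quiescent, 32.2% in senescent and 48.7% in proliferating cells. TNS1 hosted 9, BCL9L 8, and NAV1 and SH3PXD2A 7 each. They encode an actin-binding adhesion protein, a WNT coactivator, a microtubule-binding protein and a podosome scaffold. BCL9L is short, at 29.8 kb, and quiescent peaks covered 18.8% of it, senescent peaks 61.6% and proliferating peaks 65.9%. Its 8 kept peaks were all lost when 1 Mb bins dense in quiescent peaks were left out.

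The lncRNA genes DANT1 and DANT2, which overlap on the X chromosome, shared 12 of the 38 kept peaks of that chromosome. They lie at DXZ4, a macrosatellite of tandem repeats that is known to bind CTCF and to organise X chromosome folding. The 12 peaks spanned 41.2 kb, were 259 to 635 bp wide and scored from 12 to 43. Of the 11 steps between neighbouring midpoints 8 measured 2.5 to 3.5 kb, with a median of 2.98 kb. Senescent cells had 12 separate partners there and proliferating cells 9. Repeat copies share sequence, and the sources used here do not say how reads with several alignments were treated. None of the 12 were among the equal numbers of highest-scoring peaks of all 3 lists.

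**Figure D4:**
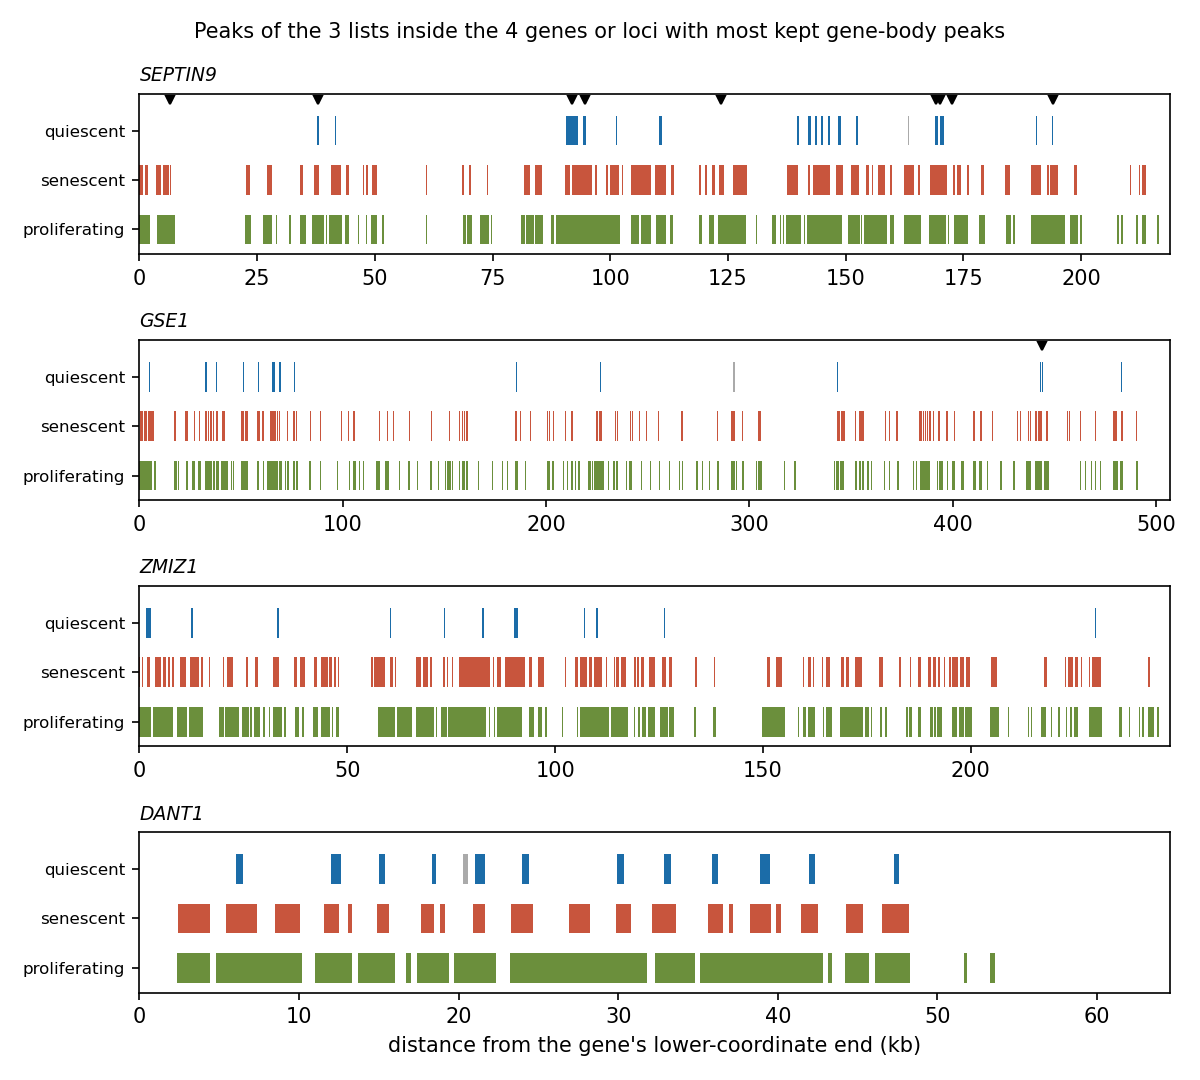
Peaks inside SEPTIN9, GSE1, ZMIZ1 and DANT1 (horizontal axis, kb from the lower-coordinate end of the gene) in the quiescent, senescent and proliferating list, with kept gene-body peaks in blue, other quiescent peaks in grey and internal start windows as triangles. Bars narrower than the line width are drawn at a minimum width. ZMIZ1 was not in the promoter table, so the absence of triangles there does not show that it lacks internal starts. The 17 kept peaks of SEPTIN9 lie under longer blocks in both other lists, and those of DANT1 recur in steps with a median of 2.98 kb.

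Among 12 gene lists, hosts were most frequent in those of known internal promoters, focal adhesion, TGF-beta, Hippo and WNT signalling, and chromatin regulators. In each list the share of hosts was set beside the 8.26% of all protein-coding genes and beside the share that genes of the same lengths gave. It was above the length-based share in 9 lists. The lists were written with earlier results of these data known, so these shares are descriptions and not independent support for a theme. Several of these lists were also rich in quiescent gene-end peaks, found at 27.5% of all protein-coding genes. Such peaks were at 29 of 44 focal adhesion, 29 of 48 matrix, 20 of 46 TGF-beta, Hippo and WNT, 25 of 47 Ras and MAPK and 30 of 56 chromatin genes. They were at 11 of 45 genes with known internal promoters, 8 of 32 fragile site genes and 1 of 38 markers of other tissues. Of 44 focal adhesion and actin genes 19 (43.2%) were hosts, where their lengths gave 4.73. Among them were BCAR1 with 6 kept peaks, PXN with 4, ITGA3 and ACTN1 with 3 each and TLN1 with 1. These encode the adhesion scaffolds Cas and paxillin, an integrin chain, alpha-actinin and talin. The highest-scoring ITGA3 peak (score 43) was 275 bp wide in quiescent, 3138 bp in senescent and 3342 bp in proliferating cells. The TLN1 peak was 168 bp wide in quiescent, 2306 bp in senescent and 6637 bp in proliferating cells.

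Of 48 fibroblast matrix genes 16 (33.3%) were hosts, where lengths gave 5.62. ADAMTS2, a procollagen protease, had 4 kept peaks. COL1A1, the main chain of fibrillar collagen I, had 2. The COL18A1 peak of 339 bp in quiescent cells, with partners of 1048 bp in senescent and 2688 bp in proliferating cells, lay over the window of an internal start 50.4 kb into the gene. Of 46 genes of TGF-beta, Hippo and WNT signalling 18 (39.1%) were hosts, where lengths gave 5.5. SKI, a repressor of SMAD signalling, had 5, SMAD3 and WNT5A had 3 each and TGFB1 had 2. The APC peak of 265 bp in quiescent cells lay over an internal start window and had partners of 1304 bp in senescent and 1213 bp in proliferating cells.

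Of 47 genes of Ras, MAPK and growth factor signalling 10 (21.3%) were hosts, where lengths gave 5.42. PDGFRB, the platelet-derived growth factor receptor of fibroblasts, had 6. Its highest-scoring peak was 426 bp wide in quiescent, 9111 bp in senescent and 7923 bp in proliferating cells. EGFR and AXL had 2 each. Of 49 AP-1 and fibroblast transcription factor genes 13 (26.5%) were hosts, where lengths gave 4.81. NFIC had 6 and NFIX 4, both nuclear factor I genes, and SRF, the serum response factor, had 2. Of the AP-1 genes in the list, FOS, FOSB, FOSL1, FOSL2, JUN, JUNB, JUND, ATF3, MAFF and BATF3 hosted none and MAFK hosted 2. A gene shorter than 2137 bp cannot host one under the rule.

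Of 42 genes of the cell cycle, CDK inhibitors and p53 targets 10 (23.8%) were hosts, where lengths gave 3.12. LMNA, which encodes the A-type lamins, had 6, BBC3 and CCND3 had 3 each, and CDKN2A and CDKN2C had 1 each. The BBC3 peak with the highest score of the list, 54, was 175 bp wide in quiescent, 572 bp in senescent and 7644 bp in proliferating cells. BBC3 encodes PUMA, a p53 target of apoptosis. The CDKN2C window under its kept peak of 698 bp was covered whole, with partners of 742 bp in senescent and 3373 bp in proliferating cells. Of 35 genes of the senescence-associated secretory phenotype 5 (14.3%) were hosts, where lengths gave 1.65. They were VEGFA with 3, TIMP2 and INHBA with 2 each and IGFBP4 and STC1 with 1 each, and no interleukin or chemokine gene of the list was among them. The median gene of the list was 9.87 kb long.

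Of 56 chromatin regulators 21 (37.5%) were hosts, where lengths gave 7.38. HDAC7 had 5, and HDAC5 and DNMT3A had 4 each. The HDAC5 peak (score 42) was 760 bp wide in quiescent, 1684 bp in senescent and 5414 bp in proliferating cells. Of 45 genes written down for their known internal promoters 22 (48.9%) were hosts, where lengths gave 6.47. Besides SEPTIN9, PLEC had 7 and NFIC, LMNA and MYLK had 6 each. Few of these peaks lay over an internal start window: 5 of the 17 in SEPTIN9, 1 of the 6 in LMNA and none in NFIC, MYLK or PLEC. NFIC had no internal start window, and PLEC was not in the promoter table. A place on this list therefore does not place a kept peak at an internal promoter.

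The other 3 lists were close to the share their lengths gave, which lay within the Wilson interval of each. Of 48 genes for R-loop, RNA export and splicing factors 3 (6.25%) were hosts, where lengths gave 4.38. They were XPO1, RCC1 and BRCA1, which encode an export receptor, its Ran exchange factor and a DNA repair protein. The BRCA1 peak lay in 3 overlapping host genes, and all of its 394 bp lay over the pseudogene BRCA1P1. Of 32 common fragile site genes, which are very long, 5 (15.6%) were hosts, where lengths gave 5.14. Of 38 marker genes of other tissues 2 (5.26%) were hosts, where lengths gave 2.56, namely SYN1 and MBP. With a mutual overlap of 50%, 3 of the 12 lists stayed above their length-based share.

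**Figure D5:**
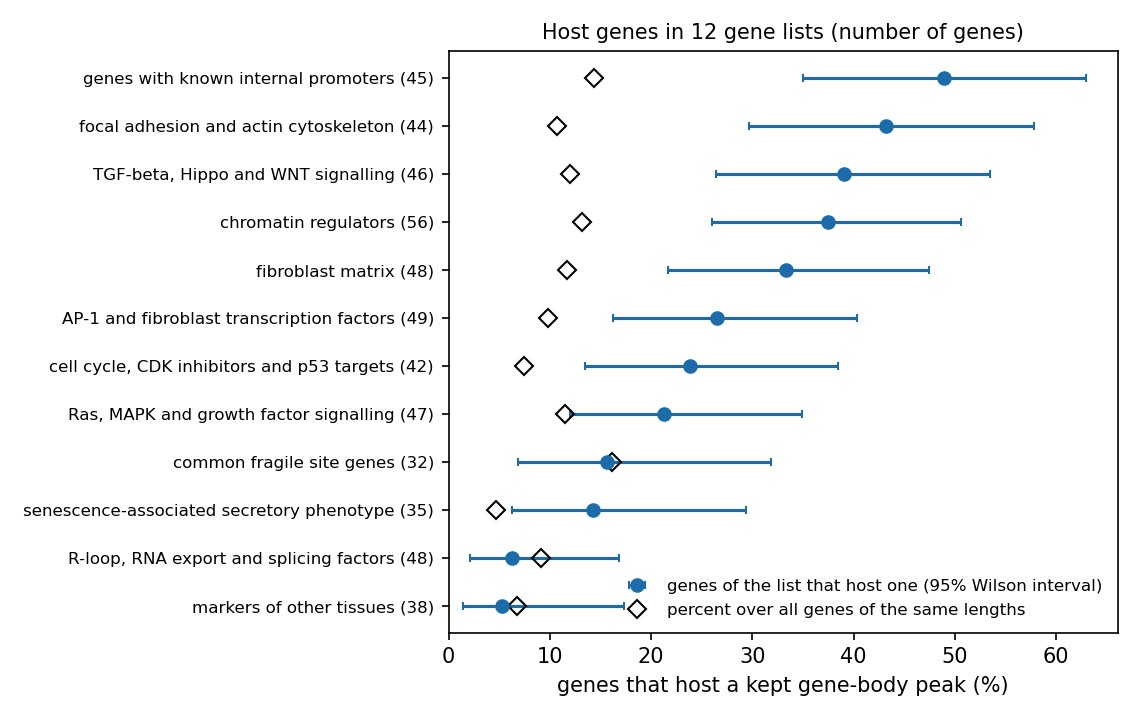
Share of genes that host a kept gene-body peak (horizontal axis, percent) in 12 gene lists, with 95% Wilson intervals (blue) and the share over all protein-coding genes of the same lengths (open diamonds). Genes with known internal promoters stand highest at 48.9%, and markers of other tissues lowest at 5.26%. The lists were written with earlier results of these data known.

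Few kept peaks lay over genes of other classes. A pseudogene, small RNA or other gene was overlapped by 25 kept peaks (0.967%), against 1.6% of those not kept (difference -0.629 points, -3.63 to 0.518). At gene ends the share among kept peaks was 1.93% and outside genes 9.0%. MicroRNA genes lay under 6 kept peaks. Mature sequences of the miRNA genes under those peaks are shown with the seed, bases 2 to 8, in capitals, because they name the products of the nested genes. They come from RefSeq on GRCh38.p14, which gave no mature entry for miR-199b-5p or miR-639, so the set is incomplete.
miR-152-3p, in COPZ2, chr17:48037174-48037194, minus strand: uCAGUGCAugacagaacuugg
miR-152-5p, in COPZ2, chr17:48037210-48037232, minus strand: aGGUUCUGugauacacuccgacu
miR-199b-3p, in DNM1, chr9:128244745-128244766, minus strand: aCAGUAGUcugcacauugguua
miR-3154, in DNM1, chr9:128244956-128244977, minus strand: cAGAAGGGgaguugggagcaga
miR-3180-5p, in LOC101927469 and LOC112268172, chr16:14911237-14911261, plus strand and chr16:18402230-18402254, minus strand: cUUCCAGAcgcuccgccccacgucg
miR-3180-3p, in LOC112268172, chr16:18402189-18402210, minus strand: uGGGGCGGagcuuccggaggcc
miR-4505, in MIDEAS, chr14:73758749-73758766, plus strand: aGGCUGGGcugggacgga

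No seed was shared between the printed sequences except by the copies of MIR3180. MIR152 lay whole under a kept peak of 817 bp in COPZ2, a coatomer subunit gene, with partners of 977 bp in senescent and 1884 bp in proliferating cells. MIR199B lay whole under a kept peak of 293 bp in DNM1, a dynamin gene, with partners of 2768 bp in senescent and 3366 bp in proliferating cells. MIR3154 reached 10 bp into the same peak, with 1 base of its mature sequence. MIR3180-1 and MIR3180-3 have identical hairpin sequences at separate places on chromosome 16, so their peaks at scores of 30 and 22 cannot be told apart by sequence there. MIR639 was overlapped by 29 bp in TECR, and the snoRNA gene SNORD167 lay whole under a kept peak of 1582 bp in ACAP3.

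The density of kept peaks varied between chromosomes. Per Mb of gene-body sequence there were 6.25 on chromosome 19 and 4.27 on chromosome 17, against 0.638 on X and 0.695 on chromosome 18. The value over all chromosomes was 1.68. For every 100 proliferating gene-body peaks without a quiescent partner there were 23.3 kept peaks on chromosome 19, 18.5 on X and 7.08 on chromosome 18, against 12.5 over all chromosomes. The X value rests on 38 kept peaks and 205 proliferating ones, and 12 of the 38 lay in the DANT1 and DANT2 repeats. Another kept peak lay within 5 kb of 25.6% of them, and the median distance to the nearest was 46.5 kb.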

How the data were processed

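R-loop peaks were measured by MapR in IMR90 fibroblasts, with 1 RNase H-MNase library in each of 3 states. The build GRCh38 and the tools MACS2 2.2.7.1, FastQC 0.11.9 and Bowtie2 2.4.5 are named, per the submitters' processing notes. The sources used here give no settings, read filters or use of GST-MNase libraries as controls. The deposited lists give each peak's position and the authors' score, whose scale is not stated. No counts were available, so depth and its precision are unknown.

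Genes, promoter windows and miRNAs came from RefSeq tables of GRCh38.p14. No genome was used, so the sequence of the peaks themselves, exons and introns are not analysed here. Strand was known only for genes in the promoter table, which held 27195 genes. Peaks were classed at gene ends (within 1000 bp), in gene bodies or outside, with Python 3.11.15, pandas 2.3.3 and numpy 2.4.6, by code checked on simulated data. The planned AP-1, CTCF, NRF1, TATA and G-run motifs were searched in start windows in place of peaks, and the GC box was added afterwards. Shares carry 95% Wilson and differences Newcombe intervals. Expected hosts of a list sum, over its genes, the host share of the protein-coding genes in the same of 5 equal length classes.

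The members and gene lists were chosen with earlier results of these data known. Named genes are hosts of the 10 highest quiescent scores, the 10 best lower ranks over the lists, the 10 genes with most members, the 5 widest members, up to 4 hosts per list, members over small RNA genes and the 3 nearest the limit on each side. A gene under this rule is not reported here. Further genes in the text, and the comparisons on internal starts and position, were chosen after their values were seen. Alternatives tried were stricter overlap, score cuts, equal list sizes, gene-end windows of 500 and 3000 bp, protein-coding genes only, lists without wide peaks and dense bins, and merged peaks.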

Additional observations from a re-analysis of the deposited data

How the results depend on the processing

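No paired analysis was possible because each state has 1 library. The number and share of kept peaks, hosts, nested genes, internal starts, position within 5 kb and gene list counts were recomputed under the alternatives named with the methods, and under a senescent comparison list, promoter-table genes, peak midpoints and the removal of the 10 densest hosts, chosen after seeing the data. Widths, ranks, sequence content, gene-end shares, segment shares and chromosome densities were not recomputed. Of 145 recomputed summary values 104 stayed within the interval of the reported one, or within 1.5 times a count, 40 moved and 1 reversed. Requiring 50% of both peaks left 106 kept peaks (1.09% of quiescent peaks) in 86 protein-coding hosts, with 0% over a nested gene and 3 lists above their length-based share. The difference in protein-coding hosts reversed to -6.71 points there, and the internal-start differences were 6.61 points to proliferating peaks without a quiescent partner and 0.378 points to peaks not kept, and the difference within 5 kb was 3.91 points. Covering 50% of the quiescent peak gave 25.1% kept and an internal-start difference of 7.46 points to the proliferating peaks. Partners at or above the median score gave 23.7% and 6.88 points. All lists at or above their median score left 1219 kept peaks (24.4%) in 883 hosts, 14.8% over an internal start window and a nested-gene difference of 0.611 points. Equal numbers of highest-scoring peaks left 897 (9.22%) in 631 hosts, 14.2% over an internal start window, internal-start differences of 3.34 points to peaks not kept and 3.02 points to proliferating peaks, and 21.7 points within 5 kb. A gene-end window of 500 bp gave 34.5% kept, 9.99% over an internal start window, and differences of 6.31 points over internal starts and 29.3 points within 5 kb. A window of 3000 bp gave 18.1% kept, an internal-start difference of 10.9 points to peaks not kept and 4.48 points within 5 kb. With protein-coding genes only, the difference in such hosts was 0 by construction. The senescent comparison list gave 15.1 points within 5 kb. Promoter-table genes gave 21.6% kept, 15.3% over an internal start window and a difference of 10.6 points. Peak midpoints gave 5.47% over an internal start window, with 4.01 points to proliferating peaks and 2.38 points to peaks not kept, which a single base under the peak makes lower by construction. Leaving out the 10 densest hosts gave 25.6% kept. The causes of the other changes were not tested. Of 246 recomputed counts of hosts per list and kept peaks per gene, 176 stayed within 1.5 times. Depth is unknown and there is 1 library per state, so no difference between states can be set against replicate error.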
